A study of Mus musculus with 4 samples.

Results

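The genes described here encode the VEGF and Norrin ligands and their receptors: Vegfa, Kdr, Flt1, Nrp1, Ndp, Fzd4, Tspan12 and Lrp5. They were chosen by name, and all 8 had a row among the 32285 genes of each of the 4 count matrices. The matrices come from droplet single-cell RNA sequencing (10x Genomics) of mouse retina at postnatal day 30. The NLGF group held 1 female and 1 male retina, and so did the wild-type (WT) group, with each retina in a library of its own. NLGF is the usual name of an App knock-in line whose amyloid precursor protein carries mutations of familial Alzheimer's disease in a humanised amyloid-β sequence. The labels give the name alone, without the allele's zygosity or the strain of either group, and expression of App checks no such label, since a knock-in changes the sequence and not necessarily the level.

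VEGF-A, the product of Vegfa, is a secreted signal that drives the growth and leakage of blood vessels. It signals mainly through the receptor tyrosine kinase encoded by Kdr, is bound more tightly by the weakly signalling receptor encoded by Flt1, and is held by the co-receptor neuropilin, encoded by Nrp1, which also binds secreted semaphorins. Norrin, the product of Ndp, is a secreted ligand that binds the receptor encoded by Fzd4 together with the co-receptor encoded by Lrp5, and the tetraspanin encoded by Tspan12 strengthens that signal, which runs through β-catenin. In mice, loss of Norrin, Fzd4, Lrp5 or Tspan12 impairs growth of the deep retinal capillaries and the blood-retina barrier.

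Kdr and Flt1, the VEGF receptor genes, had high levels in glia as well as in vessels in these retinas. The 250 bases before their annotated starts are therefore shown for reference (RefSeq, GRCm38.p6). Both genes lie on the minus strand of chromosome 5. The Kdr window is chr5:75978456-75978705 and the Flt1 window is chr5:147726012-147726261. Each is written 5′ to 3′ on the gene's own strand, with capitals for GGGCGG (on either strand, hence CCGCCC) and for TGACGTCA.
Kdr: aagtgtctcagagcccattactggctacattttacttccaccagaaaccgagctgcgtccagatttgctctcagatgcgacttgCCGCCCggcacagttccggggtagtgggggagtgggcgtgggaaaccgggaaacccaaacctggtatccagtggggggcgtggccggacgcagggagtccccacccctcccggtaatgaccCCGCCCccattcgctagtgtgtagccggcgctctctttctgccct
Flt1: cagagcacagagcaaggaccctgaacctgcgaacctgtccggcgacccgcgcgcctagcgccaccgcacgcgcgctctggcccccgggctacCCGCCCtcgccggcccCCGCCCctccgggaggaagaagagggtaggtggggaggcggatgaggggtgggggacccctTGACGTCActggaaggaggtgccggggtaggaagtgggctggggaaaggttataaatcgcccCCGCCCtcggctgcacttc
GGGCGG, a motif of SP1 and related factors, had 2 matches in the Kdr window and 3 in the Flt1 window, and was present in 32.7% of 32851 mouse promoters of the same length. TGACGTCA, the cyclic AMP response element, had 0 matches in the Kdr window and 1 in the Flt1 window, against 1.55% of promoters with at least 1 match. These matches describe letters only.

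The other members lie on separate chromosomes (GENCODE M21, GRCm38). Vegfa is at chr17:46016993-46032369, Nrp1 at chr8:128358604-128503363, Ndp at chrX:16885521-16911774 and Fzd4 at chr7:89404355-89413134. Tspan12 is at chr6:21771395-21852515 and Lrp5 at chr19:3584828-3686564. The whole genes of Kdr and Flt1 span chr5:75932827-75978458 and chr5:147561604-147726011. Tspan12 overlaps Gm30270 on the opposite strand, which also has a row in the matrices, so its counts are uncertain if reads were counted without regard to strand.

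The 4 libraries held 35191 barcodes and 85860041 UMIs (unique molecular identifiers, 1 per captured RNA molecule), with library totals between 19128388 and 23473093. Quality filters and removal of likely doublets left 31532 cells, which were grouped by expression of fixed marker genes into 10 classes. No member was a marker or was used for clustering. Rods made up 25339 cells at a median of 889 UMIs, Müller glia 732 cells at a median of 9400 and endothelial cells 88 cells at a median of 4610.5. The remaining classes held 1538 cone bipolar, 706 rod bipolar, 690 cone, 601 amacrine, 506 retinal ganglion, 79 microglial and 60 horizontal cells. Between 17 and 34 barcodes were shared by each pair of libraries, 132 in all. Levels are given as CPM, the UMIs of a gene scaled to 1e6 UMIs of a class within a library, in the order female and male; CPM values are not corrected for transcript length, so levels are compared between classes and not between genes. A class is said to overlap with the next when the ranges of their 4 libraries overlap. Where both libraries of a genotype lie above both of the other, this is a description only. The share of all genes that separate in this way was not counted. Since the classes were built from the same cells, differences between classes are described and not tested.

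The class labels held against their markers, with exceptions that touch the results. All 10 endothelial markers were present in the endothelial class, with a summed level of 13124 and 11377 CPM in the NLGF libraries, against 9819 and 11185 CPM in the WT libraries. That class also held pericyte RNA, since all 8 pericyte markers had UMIs there and summed to 3813 and 9322 CPM in NLGF, against 12838 and 7379 CPM in WT. Pericytes are the contractile wall cells of capillaries. Of the 88 cells, 37 held more UMIs of pericyte markers than of endothelial markers and are called mural-marker cells here. In Müller glia, the main support glia of the retina, the endothelial markers Cldn5, Emcn and Tie1 were at 0, and the 7 of 10 endothelial markers with UMIs summed to 41.5 and 50.3 CPM in NLGF, against 54.2 and 66.7 CPM in WT. Astrocyte markers set the WT female apart within that class: they summed to 200 and 213 CPM in NLGF, against 849 and 161 CPM in WT.

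**Figure D1:**
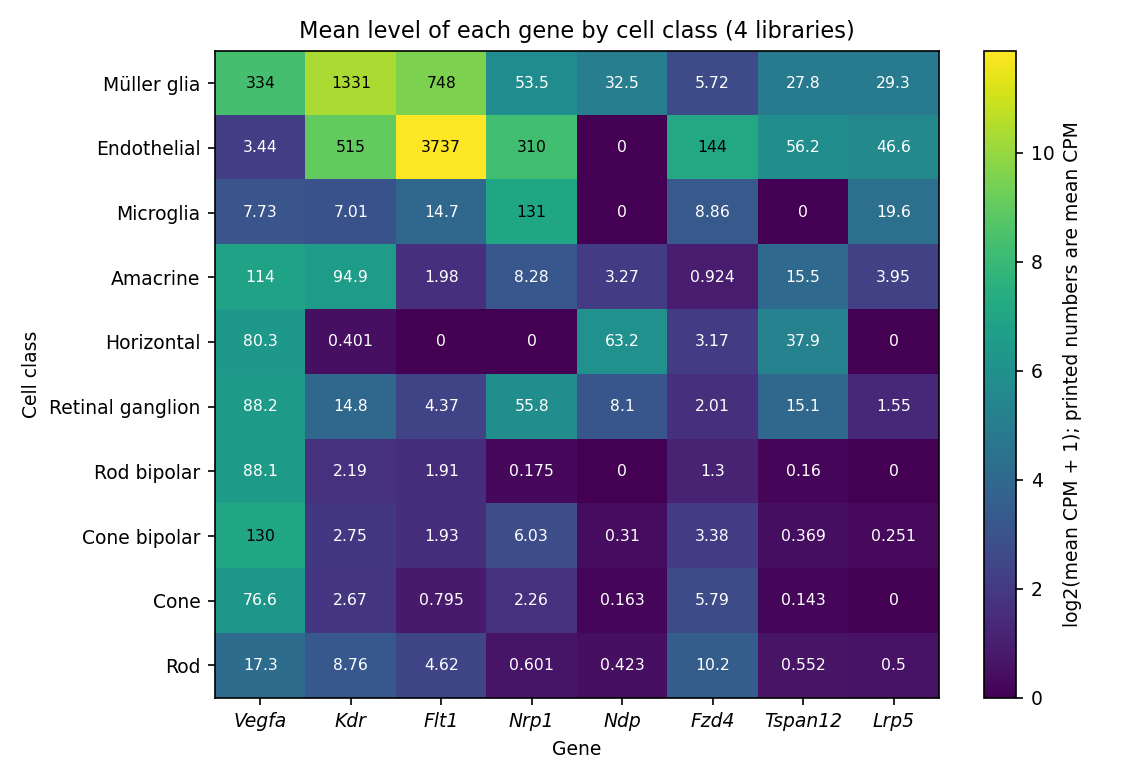
Mean level of each gene (columns) in each cell class (rows) over the 4 libraries, written in CPM in each square and shaded by log2 of mean CPM + 1. Kdr is highest in Müller glia at 1331 CPM, Flt1 in endothelial cells at 3737 CPM, Vegfa in Müller glia at 334 CPM and Ndp in horizontal cells at 63.2 CPM.

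Vegfa was highest in Müller glia and was measured at lower levels in every class of neuron. Endothelial cells and microglia held 2 Vegfa UMIs each. Depth limits these values, since 3 UMIs in a library would be 10.1 to 30.4 CPM in endothelial cells and 37.7 to 106 CPM in microglia. In Müller glia Vegfa stood at 292 and 336 CPM in the NLGF libraries, against 430 and 276 CPM in the WT libraries. The WT female was the highest of the 4 and the WT male the lowest, so the genotypes overlapped. The mean over the 4 libraries was 334 ± 69.2 CPM (SD, n = 4 libraries), 2.57 times that of cone bipolar cells, and the ranges of these classes did not overlap.

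Below Müller glia, Vegfa formed a graded series among neurons. Cone bipolar cells had 121 and 125 CPM in NLGF, against 141 and 131 CPM in WT. Amacrine cells had 94.4 and 122 CPM in NLGF, against 126 and 113 CPM in WT. The means were 130 CPM in cone bipolar, 114 in amacrine, 88.2 in retinal ganglion, 88.1 in rod bipolar, 80.3 in horizontal and 76.6 in cone cells, and each overlapped with the next. Rods followed at 17.3 CPM, apart from cones, and microglia and endothelial cells had 2 Vegfa UMIs each in all libraries together. Of all 6543 Vegfa UMIs, 33.2% came from Müller glia, 24.2% from cone bipolar cells and 12.8% from amacrine cells.

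At a fixed depth of 500 UMIs a cell, 14.9% of Müller glia held a Vegfa UMI (exact Clopper-Pearson 95% interval 12.4 to 17.7, counting error only), against 1.10% of rods. Without thinning the shares were 80.9% of Müller glia and 2.14% of rods, whose median depths were 9400 and 889 UMIs. Cone bipolar cells had a share of 6.76% at the fixed depth and endothelial cells 1.14%, which was 1 cell of 88.

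Ndp, which encodes Norrin, was highest in horizontal cells, the interneurons of the outer retina, and next in Müller glia. Horizontal cells had 63.3 and 64.4 CPM in NLGF, against 43.3 and 81.8 CPM in WT, from 19 and 24 UMIs in NLGF and 27 and 35 in WT. Both NLGF values lay between the WT values. The horizontal mean was 63.2 ± 15.7 CPM (SD, n = 4 libraries), 1.94 times that of Müller glia without overlap, and no test was run there because the NLGF libraries held 9 horizontal cells each.

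Ndp in Müller glia stood at 29.6 and 37.2 CPM in NLGF, against 33.9 and 29.3 CPM in WT. The genotypes overlapped, with a mean over all libraries of 32.5 ± 3.75 CPM (SD, n = 4 libraries). Because Müller glia were the more numerous class, 52.8% of all 411 Ndp UMIs came from them and 25.5% from horizontal cells. Retinal ganglion cells averaged 8.10 CPM from 12 UMIs in all, and 0.977 CPM with every cell weighted equally. Amacrine cells held 3 and 18 UMIs in the NLGF libraries, against 3 and 2 in the WT libraries, and the NLGF male's 18 were spread over 15 cells. No Ndp UMI was found in endothelial cells (0 of 88; the limit of 3 counts that a count of 0 allows is a share of 3.41% of cells with a UMI), in microglia or in rod bipolar cells.

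Vegfa and Ndp could be found in the same Müller glia. A UMI of each was present in 145 of 732 cells (19.8%), while 592 cells held Vegfa and 164 held Ndp. At the fixed depth 2.05% of Müller glia and 6.67% of horizontal cells held an Ndp UMI, against 0.0237% of rods; unthinned, the shares were 22.4%, 66.7% and 0.0474%. The median depth of horizontal cells was 35916 UMIs.

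**Figure D2:**
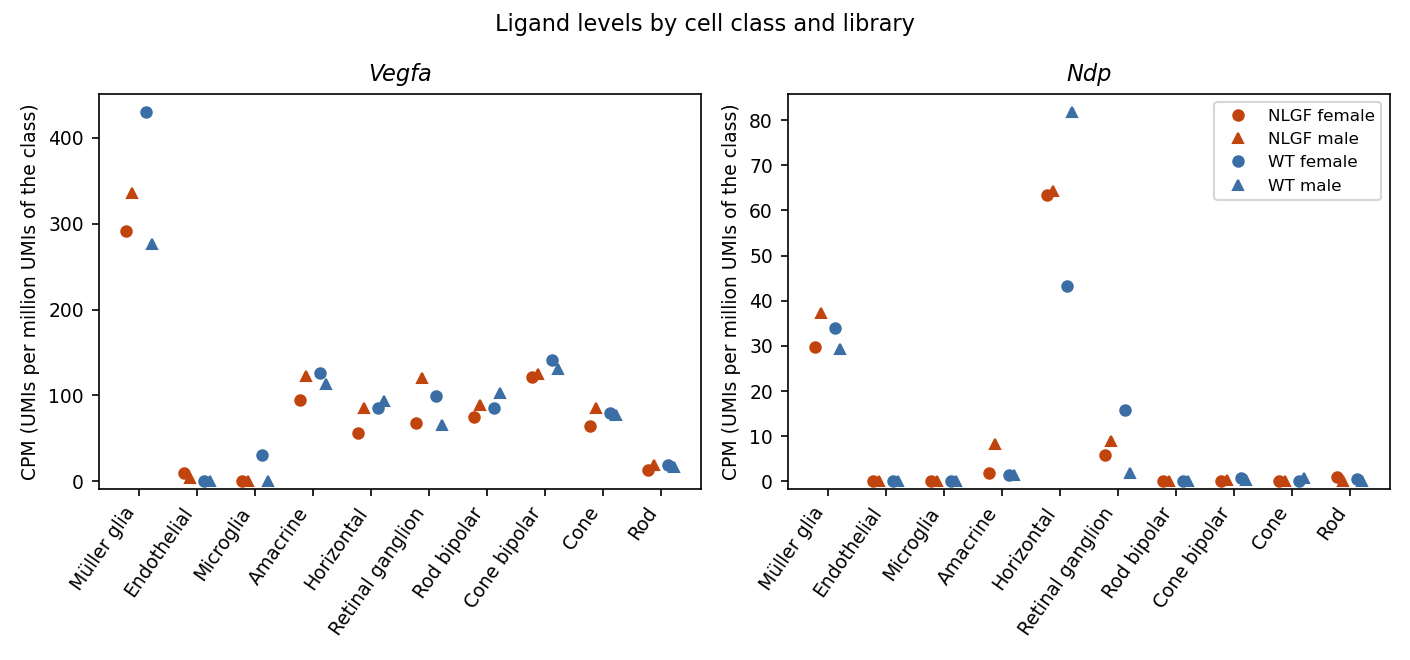
Levels of Vegfa and Ndp (vertical axis, CPM) in each cell class (horizontal axis), with 1 point per library, NLGF drawn left of WT. Müller glia lead for Vegfa at 276 to 430 CPM and horizontal cells lead for Ndp at 43.3 to 81.8 CPM, and in both the points of the genotypes overlap.

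Kdr, the main signalling receptor for VEGF-A, had its highest level in Müller glia rather than in endothelial cells. In Müller glia it stood at 1514 and 1337 CPM in NLGF, against 1252 and 1223 CPM in WT. In endothelial cells it stood at 598 and 556 CPM in NLGF, against 400 and 506 CPM in WT. Both NLGF libraries were above both WT libraries in each of these classes. The Müller mean of 1331 ± 131 CPM was 2.58 times the endothelial mean of 515 ± 85.8 CPM (SD, n = 4 libraries each), and the ranges did not overlap.

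Müller glia carried 81.1% of all 11083 Kdr UMIs and endothelial cells 4.27%. At the fixed depth 46.9% of Müller glia and 11.4% of endothelial cells held a Kdr UMI, against 0.529% of rods; the unthinned shares were 98.6%, 62.5% and 1.09%. The endothelial markers, of which 3 were at 0 and 7 had UMIs in Müller glia, summed there to 41.5 to 66.7 CPM over the 4 libraries, against 9819 to 13124 CPM in endothelial cells. Conversely, the 11 Müller markers summed in endothelial cells to 1055 and 1109 CPM in NLGF and to 923 and 897 CPM in WT, against 42906 to 43603 CPM in Müller glia themselves.

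Amacrine cells, the inhibitory interneurons of the inner retina, were the third class with Kdr, and a minority of them held most of it. The class had 91.8 and 101 CPM in NLGF, against 110 and 76.3 CPM in WT, without overlap with the endothelial range above or the retinal ganglion range below. A cluster of 165 amacrine cells led by Dync1i1, Fgf1 and Lamp5 had 262 and 249 CPM in NLGF, against 263 and 241 CPM in WT. The other 436 amacrine cells, led by Gad1 and Gad2, which encode the enzymes of GABA synthesis, had 31.1 and 38.2 CPM in NLGF, against 37.3 and 17.1 CPM in WT. The genotypes overlapped in each cluster. Flt1, at 748 CPM in Müller glia, averaged 1.98 CPM over all amacrine cells, so these cells did not carry the receptors in the glial proportion. The other classes averaged at most 14.8 CPM of Kdr, the level of retinal ganglion cells, whose mean was 36.6 CPM with every cell weighted equally.

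Flt1 had the opposite order. Endothelial cells had 3519 and 4195 CPM in NLGF, against 3644 and 3590 CPM in WT. Müller glia had 778 and 714 CPM in NLGF, against 771 and 731 CPM in WT. The endothelial mean of 3737 ± 309 CPM was 4.99 times the Müller mean of 748 ± 30.7 CPM (SD, n = 4 libraries each), without overlap, and the genotypes overlapped in both classes.

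No other class approached these levels of Flt1. Microglia averaged 14.7 CPM from 4 UMIs, all in the WT libraries, rods 4.62 CPM, and horizontal cells had no Flt1 UMI at all. Since Müller glia outnumbered endothelial cells, 55.5% of all 9019 Flt1 UMIs were theirs and 39.6% were endothelial. At the fixed depth 56.8% of endothelial cells and 30.6% of Müller glia held a Flt1 UMI, against 0.276% of rods; unthinned, the shares were 72.7%, 94.9% and 0.572%. A UMI of Kdr and of Flt1 was present together in 691 of 732 Müller glia (94.4%) and in 54 of 88 endothelial cells (61.4%), and 588 Müller glia (80.3%) held Vegfa with Kdr.

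Within the endothelial class Flt1 was lower in the mural-marker cells. The other 51 cells, whose endothelial-marker UMIs at least equalled the pericyte-marker UMIs, had 4072 and 4660 CPM in NLGF, against 4181 and 4255 CPM in WT. The 37 mural-marker cells had 279 and 3728 CPM in NLGF, against 3426 and 2014 CPM in WT, where the NLGF female held only 2 such cells. The split itself used endothelial markers, so a lower level of an endothelial gene on the mural side is a description only. Every library thus had less Flt1 in its mural-marker cells than in the rest of its endothelial class.

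Nrp1, the neuropilin co-receptor, was highest in endothelial cells and reached several other classes. Endothelial cells had 335 and 332 CPM in NLGF, against 276 and 297 CPM in WT. Both NLGF libraries were above both WT libraries. The mean of 310 ± 28.5 CPM (SD, n = 4 libraries) overlapped with the microglial range, which was wide.

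Microglia, the resident immune cells, held 3 and 0 Nrp1 UMIs in the NLGF libraries, against 18 and 15 in the WT libraries. In the WT female 15 of the 18 came from 1 cell, so the level of that library rests on it; the microglial mean was 131 CPM, and 42.7 CPM with every cell weighted equally. Retinal ganglion cells, the output neurons, averaged 55.8 CPM of Nrp1, close to the 53.5 CPM of Müller glia, and these ranges overlapped; with every cell weighted equally, the ganglion cell mean was 20.6 CPM. In Müller glia the values were 54.4 and 67.3 CPM in NLGF, against 40.6 and 51.5 CPM in WT. Both NLGF values exceeded both WT values. Among cone bipolar cells, Nrp1 was concentrated in a cluster of 206 cells led by Otor, Grik1, Slitrk6 and Kcnip4, with 26.7 and 40.4 CPM in NLGF, against 53.0 and 21.2 CPM in WT, where the whole class averaged 6.03 CPM. Rods averaged 0.601 CPM. At the fixed depth 13.6% of endothelial cells held an Nrp1 UMI, against 0.0395% of rods; unthinned, the shares were 56.8% and 0.0789%.

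Fzd4, the Norrin receptor, was highest in endothelial cells, at 122 and 152 CPM in NLGF, against 163 and 138 CPM in WT. These values came from 12 and 42 UMIs in NLGF and 45 and 41 in WT, and the genotypes overlapped. The endothelial mean of 144 ± 18.0 CPM (SD, n = 4 libraries) was 14.1 times that of rods, the next class, without overlap.

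Fzd4 in rods was low in each cell but large in sum. Rods had 9.20 and 10.4 CPM in NLGF, against 11.5 and 9.68 CPM in WT. Rods were by far the most numerous class, and they contributed 53.1% of all 627 Fzd4 UMIs, against 22.3% from endothelial cells. Rod bipolar and amacrine cells, at higher depth per cell, averaged 1.30 and 0.924 CPM. At the fixed depth 3.41% of endothelial cells and 0.588% of rods held a Fzd4 UMI, and unthinned 50.0% and 1.22% did.

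Müller glia held few Fzd4 UMIs: 16 and 16 in the NLGF libraries, against 2 and 7 in the WT libraries. The levels were 8.62 and 8.75 CPM in NLGF, against 1.69 and 3.80 CPM in WT, so the genotypes did not overlap. The UMIs of the NLGF female were spread over 9 cells and those of the NLGF male over 14, against 2 and 6 cells in the WT female and male.

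Tspan12, the tetraspanin partner of the receptor, was highest in endothelial cells without standing apart. Endothelial cells had 71.0 and 61.4 CPM in NLGF, against 65.4 and 27.0 CPM in WT, from 7 and 17 UMIs in NLGF and 18 and 8 in WT. The WT male was the lowest, and the genotypes overlapped. Horizontal cells averaged 37.9 CPM and overlapped with both the endothelial class and Müller glia.

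In Müller glia, Tspan12 stood at 33.4 and 30.1 CPM in NLGF, against 21.2 and 26.6 CPM in WT. The NLGF values were both above the WT values. Amacrine cells averaged 15.5 CPM and retinal ganglion cells 15.1 CPM, apart from all remaining classes, none of which exceeded a mean of 0.552 CPM. With every cell weighted equally, amacrine cells averaged 16.1 CPM and retinal ganglion cells 4.61 CPM. Müller glia carried 38.4% and amacrine cells 22.5% of all 498 Tspan12 UMIs.

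Lrp5, the co-receptor that Norrin shares with Wnt ligands, was also highest in endothelial cells, at 60.9 and 39.7 CPM in NLGF, against 69.0 and 16.9 CPM in WT. The endothelial UMIs were few, 6 and 11 in NLGF and 19 and 5 in WT, and the range overlapped with that of Müller glia. When every cell was given the same weight, the endothelial mean was 22.3 CPM and Müller glia were the highest class. Summed as before, Müller glia had 38.8 and 29.5 CPM in NLGF, against 22.9 and 26.0 CPM in WT. Both NLGF values were above both WT values. Of all 303 Lrp5 UMIs, 66.3% came from Müller glia and 13.5% from endothelial cells.

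The Norrin receptor genes were found together in endothelial cells more than in glia. UMIs of Fzd4, Tspan12 and Lrp5 were present in the same cell in 17 of 88 endothelial cells (19.3%) and in 1 of 732 Müller glia (0.137%). By library the endothelial counts were 1 of 12 and 8 of 25 cells in NLGF, against 6 of 28 and 2 of 23 cells in WT. These shares depend on depth and on UMIs of each gene being few: at 500 UMIs a cell no endothelial cell held an Lrp5 UMI, and 4.55% held Tspan12.

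**Figure D3:**
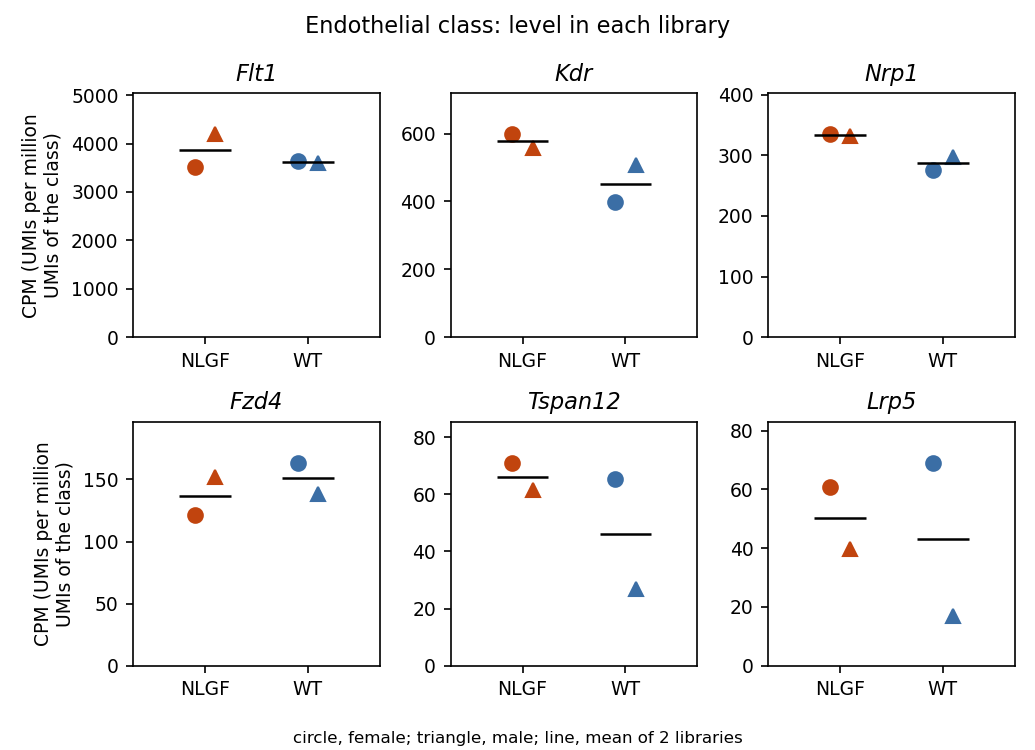
Levels of Flt1, Kdr, Nrp1, Fzd4, Tspan12 and Lrp5 in endothelial cells (vertical axes, CPM, each starting at 0). There is 1 point per library and a bar at the mean of each genotype, NLGF left of WT. Flt1 lies between 3519 and 4195 CPM, and Kdr and Nrp1 have both NLGF points above both WT points.

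The study's comparison is NLGF against WT, tested within each class on UMIs summed per library (edgeR quasi-likelihood test, TMM scaling, Benjamini-Hochberg adjustment over all genes tested in the class, threshold 0.05, n = 2 libraries each). Of the pairs of a member and a tested class, 30 had enough UMIs for a test and 42 had not. None of the 30 passed the threshold. The pairs with an unadjusted p under 0.05 were Fzd4 in Müller glia and Nrp1 in microglia. Of all genes tested in these classes, 11.2% in Müller glia and 10.3% in microglia had such a p. Each of these pairs met the low-count filter only through the genotype where it was higher, so its p-value is a description. By DESeq2, too, 0 of the tested pairs passed. With 2 libraries a genotype, the variance of each gene between the 4 animals was drawn towards that of the other genes tested in its class. The p-values and intervals thus rest largely on variation shared over genes, with 23.4 degrees of freedom in Müller glia. Intervals of the fold changes are given since a missed threshold does not show equal levels.

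In Müller glia all 8 members were tested and 0 passed, where 143 of 10888 genes (1.31%) did, 79 higher and 64 lower in NLGF. With library totals alone in place of TMM factors, 116 genes were higher and 55 lower. Vegfa had a log2 fold change of -0.20 (95% interval -0.50 to 0.09, adjusted p = 0.657). Kdr had 0.16 (95% interval -0.08 to 0.39, adjusted p = 0.669) and Flt1 -0.06 (95% interval -0.29 to 0.18, adjusted p = 0.901). The upper bound for Kdr is 1.31 times the WT level, and the lower bound for Flt1 is 0.817 times it.

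Of the other members in Müller glia, only Fzd4 had an interval that left out 0. Nrp1 had a log2 fold change of 0.32 (95% interval -0.04 to 0.69, adjusted p = 0.524), Ndp 0.05 (95% interval -0.39 to 0.49, adjusted p = 0.966), Tspan12 0.33 (95% interval -0.13 to 0.80, adjusted p = 0.634) and Lrp5 0.42 (95% interval -0.05 to 0.88, adjusted p = 0.513). Fzd4, named here after its values were seen, had 1.48 (SE 0.54, 95% interval 0.36 to 2.60, unadjusted p = 0.0117). It failed the correction over all genes at an adjusted p of 0.256, and it met the low-count filter only through the NLGF libraries. Over the 8 members, Fzd4 included, the median log2 fold change was 0.24, with 6 members above 0 and 2 below. Over all genes tested the median was 0.00, and the median of the absolute values was 0.18. The share of all genes above 0 was not counted, so the members' directions are a description only.

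The Müller result for Vegfa rested on the WT female. Without the WT male the log2 fold change was -0.49 with an adjusted p of 0.0253, and without the WT female it was 0.13 with an adjusted p of 0.737. That library also carried the most astrocyte-marker RNA. In the Müller class 120 cells held UMIs of at least 2 astrocyte markers, Pdgfra not counted. They were 32 and 43 cells in NLGF, against 19 and 26 in WT, so the WT female held the fewest. Their median depth was 11518 UMIs, against 8815.5 in the other 612 cells. Whether they were astrocytes or deeper Müller glia was not tested. In the 120 cells Vegfa was 292 and 300 CPM in NLGF, against 603 and 310 CPM in WT. In the other 612 cells it was 292 and 349 CPM in NLGF, against 388 and 268 CPM in WT, with the WT female again the highest. Without those 120 cells the log2 fold change was -0.06 with an adjusted p of 0.926.

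**Figure D4:**
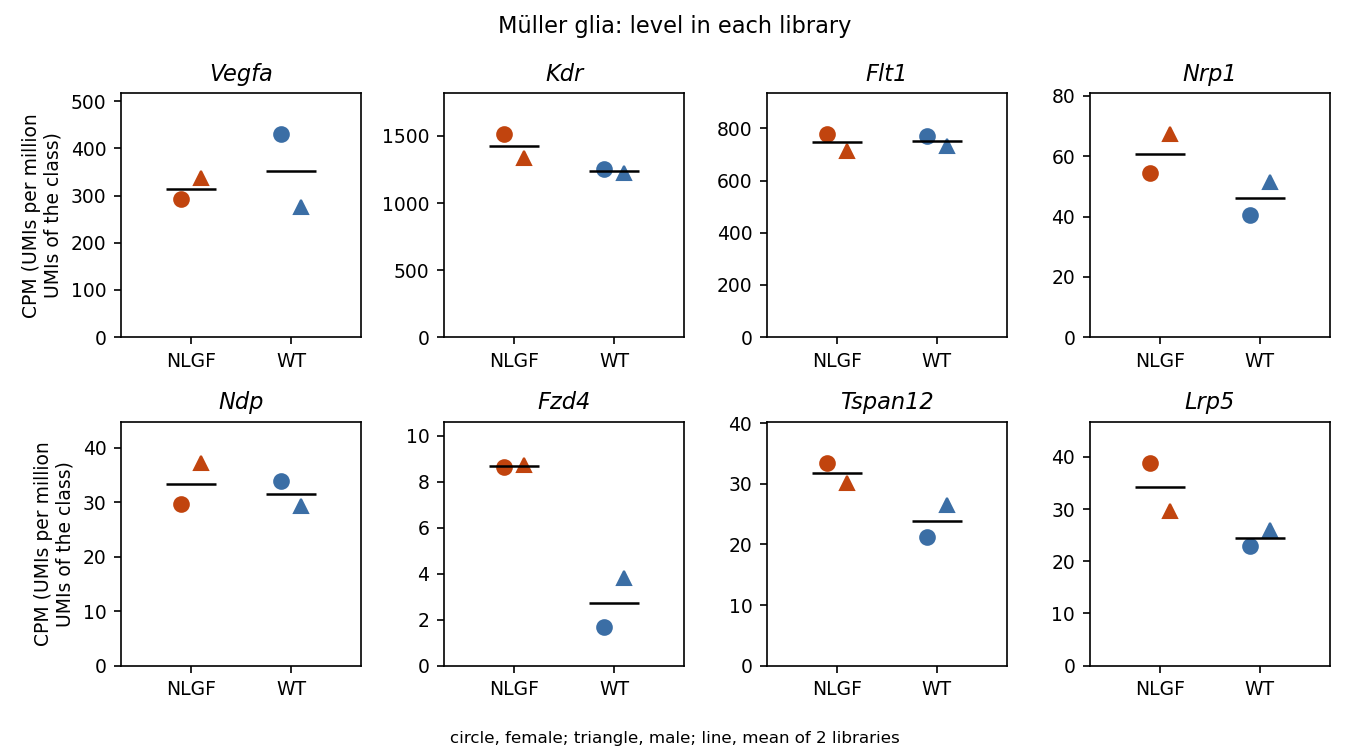
Levels of the 8 genes in Müller glia (vertical axes, CPM, each starting at 0), with 1 point per library and a bar at the mean of each genotype, NLGF left of WT. Kdr, Nrp1, Fzd4, Tspan12 and Lrp5 have both NLGF points above both WT points, whereas the points of Vegfa, Flt1 and Ndp overlap. CPM are not scaled by TMM factors, and the share of all genes that separate in this way was not counted.

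In endothelial cells 6 members were tested and 0 passed, where 5 of 5210 genes (0.096%) did. Kdr had a log2 fold change of 0.33 (95% interval -0.10 to 0.76), Flt1 0.08 (95% interval -0.20 to 0.37), Nrp1 0.20 (95% interval -0.25 to 0.66) and Fzd4 -0.10 (95% interval -0.68 to 0.49). Tspan12 had 0.48 (95% interval -0.51 to 1.47) and Lrp5 0.11 (95% interval -1.12 to 1.33), and all adjusted p lay between 0.966 and 0.999. The NLGF female held 12 endothelial cells and the most rod RNA, with the 9 rod markers summing to 3884 and 1026 CPM in NLGF, against 1475 and 989 CPM in WT. The 5 red blood cell markers summed there to 12434 and 3898 CPM in NLGF, against 7.27 and 30947 CPM in WT, so the WT male, lowest for Tspan12 and Lrp5, held the most of them. The part of rod and red blood cell RNA in these values was not tested. A fit added after seeing the data left out the mural-marker cells. In it Kdr had a log2 fold change of 0.32, Flt1 0.013, Nrp1 0.18 and Fzd4 -0.47, with adjusted p between 0.985 and 0.995. Tspan12 and Lrp5 had too few UMIs for a test there.

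Nrp1 in microglia had the largest fold change of a tested pair, a log2 value of -2.59 (95% interval -4.46 to -0.72, unadjusted p = 0.0102), with an adjusted p of 0.342. There Nrp1 met the low-count filter only through the WT libraries. No gene of 873 tested in microglia passed (0%; 90 had an unadjusted p under 0.05, and DESeq2 called 0). Without the NLGF female the log2 fold change was -6.73 with an adjusted p of 0.0241, a fit in which the remaining NLGF library held no Nrp1 UMI. Rod markers in that class summed to 8636 and 18314 CPM in NLGF, against 7885 and 4610 CPM in WT. Müller markers summed to 2154 and 1700 CPM in NLGF, against 9756 and 3631 CPM in WT, and were thus lower in both NLGF libraries, as Nrp1 was. Cone markers summed to 246 and 8891 CPM in NLGF, against 433 and 415 CPM in WT. The part of these RNAs in the result was not tested.

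Among neurons no member passed either. Vegfa had a log2 fold change of -0.16 in amacrine cells (95% interval -0.46 to 0.13), where 0.00893% of genes were called, and of -0.16 in cone bipolar cells (95% interval -0.35 to 0.02), where 0% were called. It had -0.20 in rod bipolar cells (95% interval -0.51 to 0.10), again with 0% of genes called, and 0.15 in retinal ganglion cells (95% interval -0.61 to 0.92), with 0.082% called. Nrp1 in retinal ganglion cells had 0.25 (95% interval -0.55 to 1.04), Tspan12 in amacrine cells -0.08 (95% interval -0.69 to 0.54) and Fzd4 in rods -0.18 (95% interval -0.57 to 0.22), where 0.00806% of genes were called. The adjusted p of these 7 values lay between 0.802 and 0.999. Within the retinal ganglion class the ganglion cell markers summed to 10437 and 8764 CPM in NLGF, against 7196 and 6313 CPM in WT, and the rod markers to 2586 and 2526 CPM in NLGF, against 4192 and 5203 CPM in WT. Neither list overlapped between genotypes, and their part in the Vegfa and Nrp1 values of that class was not tested. The 9 tested pairs in which the class lay below the level over all cells, among them Vegfa in cones where 0% of genes were called, had log2 fold changes from -0.64 to 1.48 and adjusted p from 0.256 to 0.999.

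**Figure D5:**
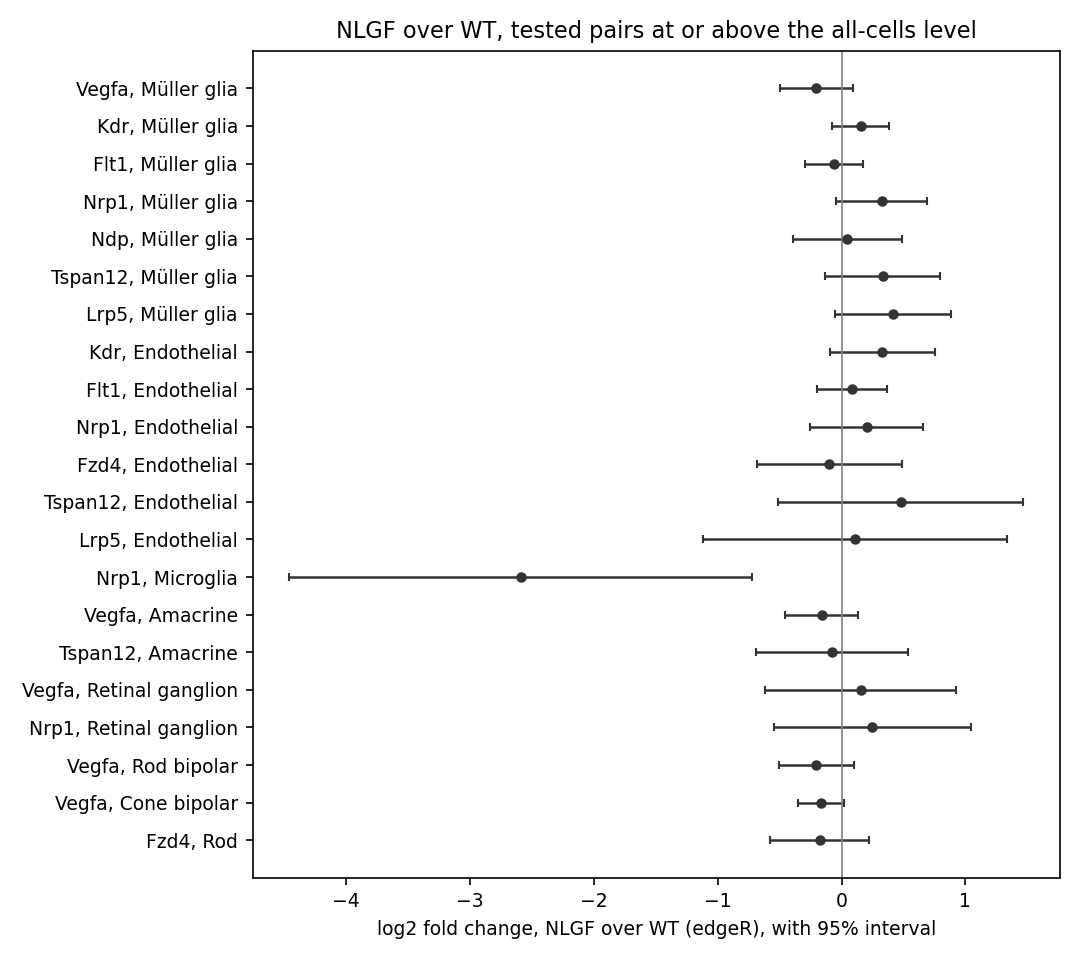
Log2 fold change of NLGF over WT (horizontal axis) with its 95% interval for the 21 tested pairs of a gene and a class whose level was at or above that over all cells (rows). The intervals cross 0 except for Nrp1 in microglia at -2.59, and none of these pairs passed the adjusted threshold.

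Summed over all cells of a library, Kdr was the member that differed most between genotypes. It stood at 190 and 153 CPM in NLGF, against 105 and 133 CPM in WT, a log2 fold change of 0.48 (SE 0.14, unadjusted p = 0.0105) that failed the correction with an adjusted p of 0.388. Over all cells 5 of 16166 genes (0.0309%) passed. In such sums more cells of a class and more RNA per cell cannot be told apart. Müller glia, with 81.1% of Kdr UMIs, held 10.8% and 9.12% of all UMIs in NLGF, against 6.32% and 8.80% in WT, and within that class the log2 fold change was 0.16. For the other 7 members the adjusted p over all cells lay between 0.594 and 0.938.

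The NLGF effect in Müller glia was also set against that in rods, amacrine cells and endothelial cells, in fits with the library as a block, for the 14 cases where a member was tested in both classes. None of the 14 passed, where 0.419% of genes did against rods, 0.358% against amacrine cells and 0.259% against endothelial cells. The difference for Fzd4 between Müller glia and rods was 1.67 on the log2 scale (SE 0.58, unadjusted p = 0.00383, adjusted p = 0.271), and between Müller glia and endothelial cells 1.60 (SE 0.65, adjusted p = 0.639). Both Fzd4 differences reuse the Müller counts, which met the low-count filter only through the NLGF libraries. Their p-values are thus descriptions and no separate support. For Kdr the difference between Müller glia and endothelial cells was -0.18 (SE 0.24, adjusted p = 1).

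Other genes of these pathways were counted by lists. Of 46 Wnt and Norrin pathway genes, 28 were tested in Müller glia and 1 was higher in NLGF. This was Fzd10, another receptor of the Frizzled family, at 18.3 and 25.2 CPM in NLGF, against 8.47 and 7.59 CPM in WT (log2 fold change 1.39, adjusted p = 0.0281; 0.793 with DESeq2). The list's median was 0.01, near that of all genes.

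In endothelial cells 14 genes of that list were tested and 0 passed. The smallest p belonged to Lef1, a transcription factor that acts with β-catenin, at 375 and 415 CPM in NLGF, against 567 and 526 CPM in WT (log2 fold change -0.46, adjusted p = 0.933). Nkd1, an inhibitor induced by Wnt signals, had 30.4 and 39.7 CPM in NLGF, against 83.6 and 64.1 CPM in WT (log2 fold change -0.99, adjusted p = 0.948). Both NLGF libraries were below both WT libraries for each of these, without passing the test.

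Of 19 VEGF and semaphorin family genes, 7 were tested in each of Müller glia and endothelial cells and 0 passed in either. In Müller glia Sema3b, a secreted semaphorin, had 41.0 and 36.1 CPM in NLGF, against 18.6 and 27.1 CPM in WT (log2 fold change 0.66, adjusted p = 0.206), and Sema3e had a log2 fold change of 0.23 (adjusted p = 0.657). In endothelial cells Nrp2, the other neuropilin, had 40.6 and 65.0 CPM in NLGF, against 94.4 and 142 CPM in WT (log2 fold change -1.05, adjusted p = 0.933). Sema3g, a semaphorin of arterial endothelium, had 60.9 and 130 CPM in NLGF, against 47.2 and 64.1 CPM in WT (log2 fold change 0.93, adjusted p = 0.933). The list medians were 0.13 in Müller glia and 0.30 in endothelial cells, against 0.00 over all genes in each.

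Of 23 symbols of hypoxia genes, which include regulators of VEGF-A, 22 were in the matrices. In Müller glia 19 were tested and 1 was lower in NLGF. This was Ndufa4l2, a mitochondrial protein gene induced by hypoxia, at 10.2 and 6.56 CPM in NLGF, against 21.2 and 23.3 CPM in WT (log2 fold change -1.46, adjusted p = 0.0161; 0.554 with DESeq2 and 0.076 without the astrocyte-marker cells). Ndrg1, of the same list, went the other way without passing, at 33.4 and 30.1 CPM in NLGF, against 13.5 and 17.4 CPM in WT (log2 fold change 0.95, adjusted p = 0.0536). The list's median in Müller glia was 0.02, against 0.00 over all genes. In endothelial cells 16 were tested and 0 passed. There P4ha1, a collagen prolyl hydroxylase subunit, had 112 and 126 CPM in NLGF, against 32.7 and 57.4 CPM in WT (log2 fold change 1.40, adjusted p = 0.549). Vhl, which targets the hypoxia-inducible factors for breakdown, had 0 and 2 UMIs in NLGF, against 13 and 12 in WT, with an adjusted p of 0.769.

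Of 16 endothelial barrier genes, 15 were tested in endothelial cells and 0 passed. Slc16a1, a lactate transporter, had 1075 and 650 CPM in NLGF, against 1326 and 1333 CPM in WT (log2 fold change -0.66, adjusted p = 0.821), and Sox18, an endothelial transcription factor, had 314 and 303 CPM in NLGF, against 200 and 240 CPM in WT (log2 fold change 0.47, adjusted p = 0.966). In Müller glia 6 genes of the list were tested and 1 was higher, the amino acid transporter gene Slc7a5, at 43.1 and 60.1 CPM in NLGF, against 16.9 and 17.4 CPM in WT (log2 fold change 1.53, adjusted p = 0.000393; 0.0112 with DESeq2). Slc7a5 is known from amino acid uptake in many cell types as well as from the barrier.

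Of 26 other angiogenic signals, 16 were tested in endothelial cells and 0 passed; Cxcl12, a chemokine, had 4189 and 4498 CPM in NLGF, against 2430 and 4140 CPM in WT (log2 fold change 0.39, adjusted p = 0.959), and Acvrl1, a receptor of the TGF-β family, had a log2 fold change of 0.33 (adjusted p = 0.966). In Müller glia 12 were tested and 1 was lower in NLGF, Pdgfra, the receptor gene that marks retinal astrocytes, at 3.23 and 1.09 CPM in NLGF, against 157 and 7.59 CPM in WT (log2 fold change -5.08, adjusted p = 0.00367). Pdgfra met the low-count filter only through the WT libraries, so its p-value is a description. Of the 185 Pdgfra UMIs of the WT female, 181 lay in astrocyte-marker cells, and without that library the adjusted p was 0.33. No gene of these lists passed in any other class or over all cells.

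The genes whose levels followed each member most closely were found over 36 points (9 classes by 4 libraries, log2 of CPM + 1, 12437 genes). Horizontal cells, the class with the highest Ndp, had too few cells in the NLGF libraries to be among the 9, so the genes closest to Ndp were found without them. Points of 1 library share its depth and those of 1 class share its cells, so the correlations are descriptions with no p. Vegfa was closest to Tnik (r = 0.92), Kdr to Gpc3 (0.94), Nrp1 to Tnfrsf21 (0.94) and Ndp to Folr1 (0.95). Flt1 was closest to Pdgfrb (0.97), followed by Osmr and S1pr1, and Tspan12 to Ptn (0.97), followed by Cavin3 and Arap2. Lrp5 was closest to Tlr3 (0.91), followed by Pdgfrb and Axl. Fzd4 was closest to Adipor2 (0.88), followed by Cdh5 (0.87) and Pecam1 (0.85), both endothelial adhesion genes. Cdh5 and Pecam1 are among the markers that named the endothelial class, and Pdgfrb is among the pericyte markers. That class held both endothelial and pericyte RNA, so closeness over classes does not show expression in the same cells. Among the members themselves, Kdr and Tspan12 (0.87), Flt1 and Lrp5 (0.86) and Kdr and Flt1 (0.84) were most alike over the 36 points, and Vegfa and Fzd4 (-0.46) least.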

How the data were processed

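The deposited files are raw UMI counts per gene and cell barcode, 1 matrix per retina, made by the authors with Cell Ranger 6.1.1 per the file headers. Per the submitters' processing notes the tools were Cell Ranger 3.1.0 and STAR and the build mm10. The sources used here do not say how intronic or antisense reads were treated. Of 32285 gene IDs, 32158 matched GENCODE M21. The 4 matrices held 19128388 to 23473093 UMIs and every deposited barcode had at least 500 UMIs.

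Barcodes under 300 detected genes or over 20% mitochondrial UMIs were dropped, leaving 33329. Scrublet's automatic threshold marked 2 cells, so the 6% of each library with the highest doublet scores were removed (1797), which left 31532. Counts were scaled to 10000 per cell and logged, and 2000 variable genes without the members, 30 principal components and 20 neighbours gave 23 Leiden clusters (scanpy 1.11.5, leidenalg 0.10.2, resolution 1). Clusters were named from fixed marker lists, and 3 clusters (1193 cells) stayed unnamed. Since the names were rebuilt here, they can differ from the study's own. Shares of cells with a UMI were computed after thinning each cell to 500 UMIs.

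UMIs were summed per library and class. Classes with at least 10 cells in each library were tested (edgeR 4.0.16 quasi-likelihood test in R 4.3.3, TMM, filterByExpr, genotype as the only term); DESeq2 1.42.0 was an alternative. Standard errors are the log2 fold change over the square root of F, and intervals are 95%. The code was tested on simulated counts with known fold changes. All members are named in every class; fold changes are printed where a member passed the low-count filter and its class level was at least that over all cells, other pairs as counts, except Fzd4 in Müller glia, added after its values were seen. From each list the genes past the threshold are named, or else the 2 with the smallest p in Müller glia and in endothelial cells. Ndrg1 in Müller glia was added after its values were seen. The members and lists were chosen with earlier results of these data known, so their counts are descriptions. Counting intervals cover counting error only.

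The labels give no replicate numbers: the numbers used here follow the order of the samples, and female and male libraries share a number across genotypes. The deviations of same-sex libraries correlated over all genes at between -0.054 (microglia) and 0.35 (rods), with 0.15 in Müller glia. Without sex-linked genes they correlated at between -0.10 (microglia) and 0.14 (cones), with 0.0035 in Müller glia. With 2 pairs this does not pair them, so the block on sex was an alternative.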

Additional observations from a re-analysis of the deposited data

Results flagged for a closer look

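A cluster that was given no class name carried the glial pattern of VEGF receptors. It held 715 cells at a median of 805 UMIs, was led by Ttr, Rgr, Ptgds and Dbi, and enters the comparisons only in a fit added after seeing the data, where it was joined to the Müller glia. Kdr there averaged 725 CPM in the NLGF libraries (699 and 751), against 557 and 629 CPM in the WT libraries. Flt1 there averaged 316 CPM in the NLGF libraries (289 and 343), against 267 and 163 CPM in the WT libraries. Both results stand here because both NLGF values exceeded both WT values in cells outside the comparisons of the report, and neither difference was tested. The 11 Müller markers summed there to 26004 and 30517 CPM in NLGF, against 25850 and 23217 CPM in WT. Rod markers summed to 12726 and 10746 CPM in NLGF, against 18088 and 12363 CPM in WT. The 5 pigment epithelium markers, which include Ttr and Rgr, summed to 0 and 1052 CPM in NLGF, against 15.3 and 2987 CPM in WT. The part of Müller, rod and pigment epithelium RNA in the Kdr and Flt1 values was not tested.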

How the results depend on the processing

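The 22 member results printed for a class and the 8 over all cells were refitted 357 times in all. Of these fits 2 passed the threshold (Vegfa in Müller glia without the WT male at -0.49, and Nrp1 in microglia without the NLGF female at -6.73), 21 had the opposite sign, and 17 results kept their sign throughout; the cause of the changes was not tested. Where 1 library was left out, the lone library of its genotype was assumed to vary like the other pair. Apart from leaving out a library, the sign reversed for Ndp in Müller glia at 10% mitochondrial UMIs (-0.13), for Tspan12 in amacrine cells there (0.21) and on sums thinned to the smallest library (0.044), and on thinned sums for endothelial Flt1 (-0.0014) and Fzd4 (0.71). The Müller minus rod difference for Vegfa reversed without TMM factors (-0.029).

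Leaving out each library in turn, log2 fold changes ranged in Müller glia from -0.13 to 0.012 for Flt1, -0.12 to 0.19 for Ndp and -0.49 to 0.13 for Vegfa. In endothelial cells they ranged from -0.56 to 1.40 for Lrp5, -0.027 to 0.19 for Flt1 and -0.0068 to 1.21 for Tspan12. In amacrine cells Vegfa ranged from -0.37 to 0.00206 and Tspan12 from -0.19 to 0.012, and in retinal ganglion cells Vegfa from -0.36 to 0.54 and Nrp1 from -0.0066 to 0.72. Over all cells Vegfa ranged from -0.18 to 0.020 and Flt1 from -0.083 to 0.14. The difference from rods ranged from -0.23 to 0.24 for Vegfa and -0.15 to 0.50 for Kdr. The difference from amacrine cells ranged from -0.18 to 0.34 for Kdr, -1.32 to 0.35 for Nrp1 and -0.26 to 0.20 for Vegfa. The difference from endothelial cells ranged from -0.32 to 0.092 for Flt1, -0.39 to 0.026 for Kdr, -1.13 to 1.03 for Lrp5 and -1.03 to 0.53 for Tspan12.

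Counts of all genes called also depended on the setting. Leaving out each library in turn gave 13 to 39 in endothelial cells, 7 to 81 in microglia, 41 to 49 in amacrine, 14 to 101 in retinal ganglion, 18 to 34 in rod bipolar, 0 to 1 in cone bipolar and 9 to 83 in cone cells. In rods it gave 23 to 1000, the highest without the WT female, and over all cells 11 to 99, the highest without the WT male. For the differences it gave 26 to 104 against rods, 21 to 67 against amacrine and 9 to 24 against endothelial cells. DESeq2 called 42 genes in Müller glia, 3 in endothelial, 3 in amacrine and 56 over all cells. With doublets kept, 280 were called in Müller glia, 2 in amacrine, 1 in retinal ganglion and 1 in rod bipolar cells. Without the low-count filter the counts were 14 in Müller glia, 20 in endothelial, 10 in microglia, 68 in amacrine, 63 in retinal ganglion, 34 in rod bipolar, 38 in cone bipolar cells, 103 in rods and 15 for the difference from endothelial cells. Without TMM factors they were 6 in amacrine, 3 in retinal ganglion and 1 in rod bipolar cells and 0 in rods. At 10% mitochondrial UMIs they were 11 in retinal ganglion and 12 in rod bipolar cells and 5 in rods. On thinned sums they were 88 in Müller glia, 2 in endothelial, 7 in amacrine and 1 in rod bipolar cells. With members among the variable genes, and at resolution 2, cone bipolar cells had 2. With sex as a replicate block, microglia had 6, amacrine 48, retinal ganglion 44, rod bipolar 18, cone bipolar 25 and cone cells 23, rods 168 and all cells 0; no member passed under the block. Alternatives chosen after seeing the data gave 90 in Müller glia with the shallow glial cluster joined and 0 in endothelial cells without the mural-marker cells. The Müller class was a single cluster, so keeping only its deepest cluster changed nothing.

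With every cell weighted equally, the endothelial means were 2838 CPM for Flt1, 263 for Nrp1, 104 for Fzd4 and 22.3 for Lrp5. Unthinned shares in the highest class were 80.9% for Vegfa, 98.6% for Kdr, 72.7% for Flt1, 56.8% for Nrp1, 66.7% for Ndp, 50.0% for Fzd4, 31.8% for Tspan12 and 26.1% for Lrp5. Depth limits the endothelial values of Tspan12 and Lrp5, at 50 and 41 UMIs in all, and left Vegfa and Ndp there, at 2 and 0 UMIs, without a test.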
